A study of Mus musculus with 6 samples.

Results

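The genes described here are the *Hox* genes of the 4 mouse clusters, *Hoxa*, *Hoxb*, *Hoxc* and *Hoxd*, in mature CD4 single-positive (SP) thymocytes that lack the H3K27Me3 demethylases Jmjd3 and Utx. They were chosen by name, as 38 genes listed in order along each cluster, among 19752 genes on the arrays that carried a symbol of their own. Of the 38, 37 had 1 row of the deposited table each (10 *Hoxa*, 9 *Hoxb*, 9 *Hoxc* and 9 *Hoxd* genes), and *Hoxb8* was found only on a row that it shared with *Hoxb7*. Other cluster genes were not analysed here.

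RNA was measured on 6 Affymetrix arrays, 3 wild-type and 3 doubly deficient (dKO). All 6 samples were Vα2hi CD24lo CD4 SP thymocytes, the most mature CD4 cells of the thymus, sorted from mice carrying OT-II, a transgenic T cell receptor specific for an ovalbumin peptide presented by a class II molecule. The dKO cells carried floxed alleles of *Kdm6b* (Jmjd3) and *Kdm6a* (Utx) deleted by Cre driven from *Cd4* regulatory sequences, which become active in the thymus. Control cells, called wild-type, were from mice without Cre, which the paper describes as littermates with floxed *Kdm6b* or *Kdm6a* alleles. Cre itself was therefore present in the dKO group only. The labels give the samples as biological replicates without an age, a sex or the number of mice per sample. The paper reports female mice unless it says otherwise and gives an age range for its mice, but neither for these samples in particular.

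*Hox* genes encode homeodomain transcription factors that give positional identity along the body axis, and their order on the chromosome follows the order of the body regions that express them. In cells that do not use them, the clusters are kept silent by Polycomb complexes, which place and read H3K27Me3. Trithorax-group complexes oppose this, and removal of H3K27Me3 is the activity that Jmjd3 and Utx have in common. In blood cells, 5' and central *Hoxa* genes are best known from stem cells and progenitors, where they are expressed together with *Meis1*, and are turned down as T cell precursors commit.

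The *Hox* genes that moved most were neighbours. *Hoxa5*, *Hoxa6* and *Hoxa7*, which lie next to each other in the middle of the *Hoxa* cluster, were 2.13-fold, 1.91-fold and 1.74-fold higher in dKO cells than in wild-type cells. *Hoxa4* and *Hoxa9*, on either side of the 3, differed by 0.12 and 0.04 on the log2 scale and did not pass the test. *Hoxa9* was dim, below the array median on every array, so its value does not bound the change in its RNA. Outside the *Hoxa* cluster, *Hoxc10* alone passed the test, with a log2 fold change of 0.18.

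The annotated start regions of the 3 genes and of *Hoxa9*, the next gene in the cluster, which was not called, are shown because these genes lie within and next to the change. Each is the RefSeq window from 250 bases before to 50 bases after the annotated gene start on GRCm38.p6, read 5′ to 3′ on the minus strand of the chromosome, on which all 4 genes lie. Capitals mark CpG dinucleotides, the feature of the CpG-rich regions that Polycomb complexes occupy. The windows are chr6:52204538-52204837 for *Hoxa5*, chr6:52208623-52208922 for *Hoxa6*, chr6:52218524-52218823 for *Hoxa7* and chr6:52227321-52227620 for *Hoxa9*.
Hoxa5: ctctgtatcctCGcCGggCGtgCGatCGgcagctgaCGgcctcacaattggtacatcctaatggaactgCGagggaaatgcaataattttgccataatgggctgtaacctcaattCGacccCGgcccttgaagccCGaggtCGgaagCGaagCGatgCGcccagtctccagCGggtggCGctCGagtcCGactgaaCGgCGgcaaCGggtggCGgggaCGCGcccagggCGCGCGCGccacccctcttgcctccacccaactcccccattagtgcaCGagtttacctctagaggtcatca
Hoxa6: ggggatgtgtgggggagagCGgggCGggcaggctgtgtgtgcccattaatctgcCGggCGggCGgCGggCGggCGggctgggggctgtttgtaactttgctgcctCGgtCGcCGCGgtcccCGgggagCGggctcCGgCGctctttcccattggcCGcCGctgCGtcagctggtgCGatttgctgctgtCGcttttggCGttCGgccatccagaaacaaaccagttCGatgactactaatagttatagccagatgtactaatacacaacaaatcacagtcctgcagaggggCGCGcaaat
Hoxa7: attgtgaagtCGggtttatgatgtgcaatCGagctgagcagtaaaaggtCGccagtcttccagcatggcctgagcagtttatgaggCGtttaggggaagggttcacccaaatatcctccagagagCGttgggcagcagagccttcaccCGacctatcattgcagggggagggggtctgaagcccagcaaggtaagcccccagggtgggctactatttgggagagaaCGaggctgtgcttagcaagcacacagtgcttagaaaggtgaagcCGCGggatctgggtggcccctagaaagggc
Hoxa9: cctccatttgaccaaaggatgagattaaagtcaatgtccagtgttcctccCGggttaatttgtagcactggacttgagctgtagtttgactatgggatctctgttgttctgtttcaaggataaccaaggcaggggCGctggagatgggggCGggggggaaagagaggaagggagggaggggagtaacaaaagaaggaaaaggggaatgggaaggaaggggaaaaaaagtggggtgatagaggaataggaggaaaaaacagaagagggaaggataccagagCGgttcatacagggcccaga

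The windows of *Hoxa5* and *Hoxa6* held 29 and 26 CpG dinucleotides, against a median of 7 over the 32851 RefSeq mouse promoters of the same length. The *Hoxa7* window held 9 and the *Hoxa9* window held 4. Such a count depends on which annotated start is taken. The windows of *Hoxd11* held 4 and 25, and those of *Hoxa10* held 21 and 12. Other starts of *Hoxa7* and *Hoxa9* were not examined, so these counts do not describe every promoter of either gene. *Hoxa4*, on the other side of the 3 genes, had no entry in the table. A RefSeq window was matched for 22 of the 38 *Hox* genes (24 windows), and the median CpG number of the 24 was 14.5, between 4 and 45. The window with 45 was that of *Hoxa13* and the *Hoxd1* window held 29, as many as *Hoxa5*, and neither gene was called. None of *Hoxa5*, *Hoxa6* and *Hoxa7* had the letters TATAAA of a TATA box on either strand, which 13.6% of all promoters and 4 of the 24 *Hox* windows had. The *Hoxa7* window had 2 matches to TTTATG, a core recognised by Cdx factors, which 11.9% of all promoters hold at least once. The *Hoxa6* window had 5 matches to the GC box GGGCGG (35.7% of all promoters), and the *Hoxa5* and *Hoxa7* windows had 4 matches each to CACCC (57.5% of all promoters). Of these 3 motifs, *Hoxa9* had 1 GC box and 1 CACCC. The composite Pbx-Hox motif TGATNNAT (8.85% of all promoters) and the E-box CACGTG (7.15%) had no match in any of the 4 windows. No motif of the 6, each searched on both strands, was common to the 3 genes that were higher. These are matches of letters and are not evidence that any factor was bound.

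Values below are deposited log2 expression values from robust multi-array averaging (RMA), so a difference of 1 is a 2-fold change. Genes were tested with limma across the 19752 genes, p-values were adjusted by the Benjamini-Hochberg method, and a gene was called at an adjusted p under 0.05. Across all genes 13.1% were called higher and 10.0% lower in dKO cells, 23.1% in all. Of the 37 *Hox* genes measured, 4 were called higher, none was called lower and 33 were not called, and 7 of the 37 had an unadjusted p under 0.05. The share of *Hox* genes called was thus no larger than that of all genes. Genes both called and at least 2-fold higher made up 0.223% of all genes (44 genes), and *Hoxa5* was among them.

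The arrays of both groups were on the same scale. Array medians lay between 6.27 and 6.32, and correlations between arrays of the same genotype lay between 0.998 and 0.999, against 0.991 to 0.993 between genotypes. All 12 measured members of the 14 mature CD4 T cell markers lay above the array median on every array, *Cd4* at 12.11, 12.20 and 12.31 in wild-type and 12.32, 12.27 and 12.31 in dKO cells. Of the 12, *Cd28* (0.24) and *Il7r* (0.20) were higher and *Cd5* (-0.43), *Zbtb7b* (-0.27) and *Gata3* (-0.24) were lower. The calls of *Il7r* and *Zbtb7b* were lost without at least 1 array, with limma adjusted p values up to 0.0642 (wild-type replicate 2 left out) and 0.0706 (wild-type replicate 3 left out). *Kdm6a* was lower in dKO cells (log2 fold change -0.67, adjusted p = 2.62e-05 by limma) and *Kdm6b* was not called (-0.09, adjusted p = 0.324). Each row summarises probes along a whole transcript, and the deletions remove only part of either gene, so these values are not a measure of how complete the deletion was.

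*Hoxa5*, which patterns the neck and upper chest region and the lung, read 6.08, 6.14 and 5.93 on the 3 wild-type arrays and 6.96, 7.20 and 7.26 on the 3 dKO arrays. All dKO values lay above all wild-type values, with a gap wider than the range within either genotype. The log2 fold change was 1.09 with a standard error of 0.0829 (limma adjusted p = 1.37e-05), and its 95% interval ran from 0.91 to 1.28. The wild-type arrays placed *Hoxa5* below the array median and the dKO arrays placed it above.

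*Hoxa6*, a patterning gene of the thoracic region, read 6.45, 6.43 and 6.42 in wild-type cells and 6.98, 7.45 and 7.68 in dKO cells. The wild-type arrays were nearly identical, and the dKO arrays were all higher but spread over a range that was the widest of the 3 genes. The log2 fold change was 0.94 with a standard error of 0.139 (limma adjusted p = 8.92e-04) and a 95% interval from 0.63 to 1.25. With an unmoderated Student's t-test the adjusted p was 0.0671, and against a null of a 1.5-fold change it was 0.985.

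*Hoxa7*, which acts in the thoracic skeleton and is also known from haematopoietic progenitors, read 7.27, 7.41 and 7.38 in wild-type cells and 7.99, 8.19 and 8.28 in dKO cells. The groups did not overlap. The log2 fold change was 0.80 with a standard error of 0.0757 (limma adjusted p = 5.32e-05) and a 95% interval from 0.63 to 0.97. Tested against a 1.5-fold change, the adjusted p was 0.594.

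On each of the 3 genes the lowest dKO array was dKO replicate 1 and the highest was dKO replicate 3. Against the wild-type mean, the 3 dKO arrays were higher by 0.91, 1.15 and 1.21 for *Hoxa5*. For *Hoxa6* they were higher by 0.54, 1.02 and 1.25, and for *Hoxa7* by 0.64, 0.84 and 0.93. Every dKO array therefore showed the change in all 3 genes, including the array on which it was smallest. Whichever single array was left out, *Hoxa5*, *Hoxa6* and *Hoxa7* were called, and over all alternatives run their log2 fold changes lay between 1.03 and 1.18, 0.78 and 1.13, and 0.74 and 0.88.

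**Figure D1:**
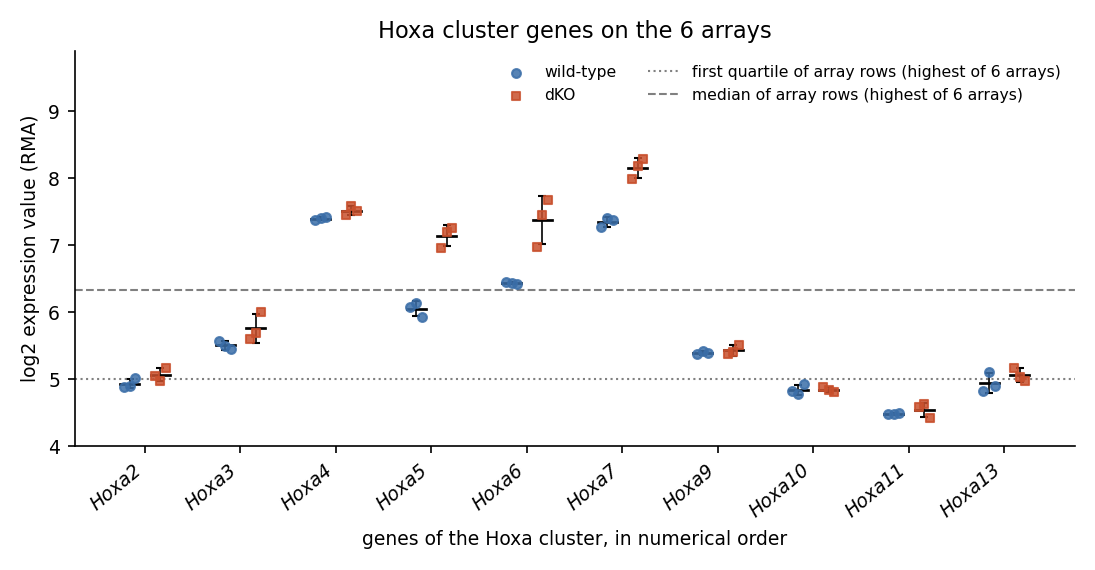
Log2 RMA expression values (vertical axis) of the 10 *Hoxa* genes in numerical order on the 3 wild-type arrays (blue circles) and the 3 dKO arrays (red squares), with the mean and SD of each group as black bars and the highest array median and first quartile as grey lines. The dKO squares lie apart from the wild-type circles at *Hoxa5*, *Hoxa6* and *Hoxa7*, and the groups lie close together at *Hoxa4* and *Hoxa9* on either side. *Hoxa9* lies below the array median on every array.

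*Hoxa3*, needed for the formation of the thymus itself from the pharyngeal pouch, read 5.57, 5.49 and 5.45 in wild-type and 5.59, 5.68 and 6.01 in dKO cells. The groups did not overlap, but the lowest dKO array was close to the highest wild-type array and most of the difference lay in dKO replicate 3. The log2 fold change of 0.26 was not called (limma adjusted p = 0.0817), its 95% interval ran from 0.05 to 0.47, and without dKO replicate 1 it was 0.34 with an adjusted p of 0.032. In RefSeq the annotated *Hoxa3* gene spans *Hoxa4*, *Hoxa5* and *Hoxa6*, and an antisense transcript overlaps *Hoxa5* and *Hoxa6*, so the deposited row values cannot be divided among overlapping transcripts.

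*Hoxa4* read 7.37, 7.40 and 7.42 in wild-type and 7.44, 7.58 and 7.51 in dKO cells. The groups did not overlap by a small margin, and the difference of 0.12 (standard error 0.0506) was not called (limma adjusted p = 0.136). *Hoxa9*, the *Hoxa* gene most often linked with stem cells and leukaemia, read 5.37, 5.42 and 5.38 in wild-type and 5.37, 5.40 and 5.52 in dKO cells. These groups overlapped, with a log2 fold change of 0.04 (limma adjusted p = 0.687). *Hoxa9* lay below the array median on every array, so the edge of the change on this side is not settled by these values.

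The remaining *Hoxa* genes lay at the ends of the cluster. *Hoxa2*, a gene of the hindbrain and branchial arches, differed by 0.13 with overlapping groups (limma adjusted p = 0.179). *Hoxa10*, *Hoxa11* and *Hoxa13*, the 5' genes that pattern the limb and the urogenital tract, differed by 0.00, 0.06 and 0.11, and in each of them the arrays of both genotypes overlapped. *Hoxa10* and *Hoxa11* lay below the first quartile of every array.

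The fold changes of *Hox* genes were then set against each other within arrays, in 14 pairs that were chosen after the values had been seen. An exact two-sided permutation test over the 6 arrays cannot go below 0.1 with 3 arrays against 3, so no pair could pass 0.05, and the differences are given as a description. The log2 fold change of *Hoxa5* was 0.97 above that of *Hoxa4* and 1.05 above that of *Hoxa9*. The differences from the same neighbours were 0.82 and 0.90 for *Hoxa6* and 0.68 and 0.76 for *Hoxa7*.

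Against paralogues, the genes at the matching place in the other clusters, the measured differences were of similar size. They were 1.02 for *Hoxa5* against *Hoxb5* and 1.20 against *Hoxc5*, 0.85 for *Hoxa6* against *Hoxb6* and 0.95 against *Hoxc6*, and 0.72 for *Hoxa7* against *Hoxb7*. Each of these pairs was at the smallest exact p the design allows, 0.1 (0.117 adjusted over the 14 pairs). *Hoxa5* against *Hoxa7* (0.29) was at 0.1 as well, and *Hoxa5* against *Hoxa6* (0.15) and *Hoxa6* against *Hoxa7* (0.14) gave an exact p of 0.4, so the spread between arrays did not separate the order of these neighbours. The paralogues were dim on every array, *Hoxc5* and *Hoxc6* below the first quartile and *Hoxb5*, *Hoxb6* and *Hoxb7* below the median. The differences from them therefore do not show that their RNA was unchanged.

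**Figure D2:**
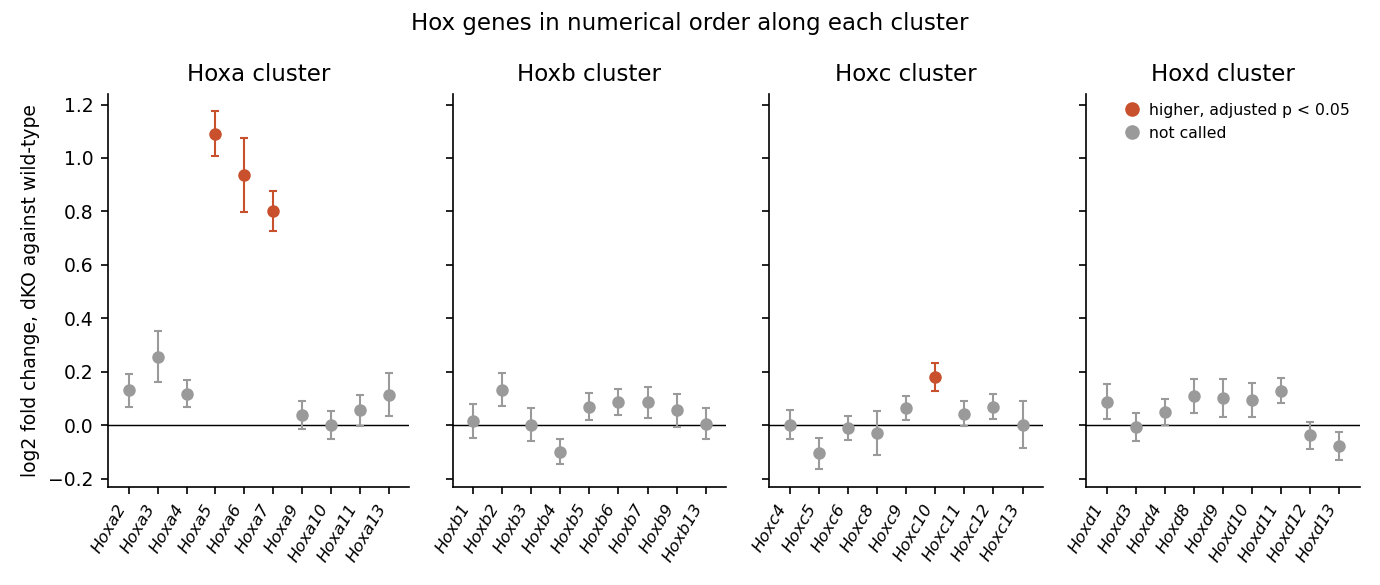
Log2 fold change, dKO against wild-type (vertical axis), of the 37 measured *Hox* genes in numerical order along each cluster, 3 arrays per genotype, with bars of 1 standard error from limma and red for genes called higher. *Hoxa5*, *Hoxa6* and *Hoxa7* stand at 1.09, 0.94 and 0.80, and the other 34 genes lie between -0.11 and 0.26.

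In the *Hoxb* cluster no gene was called among the 9 measured by limma or Student's t-test, none had an unadjusted p under 0.05, and log2 fold changes lay between -0.10 and 0.13. *Hoxb4*, known for expanding haematopoietic stem cells when overexpressed, read 5.90, 5.84 and 5.89 in wild-type and 5.80, 5.74 and 5.80 in dKO cells. It was the only *Hox* gene with every dKO array below every wild-type array, and its difference of -0.10 was not called (limma adjusted p = 0.165). *Hoxb6* was the only *Hoxb* gene with the opposite separation, at 5.52, 5.52 and 5.60 in wild-type and 5.62, 5.67 and 5.60 in dKO cells (log2 fold change 0.09, not called), although the nearest arrays of the groups were only 0.00067 apart. *Hoxb2* had the largest *Hoxb* difference at 0.13 (limma adjusted p = 0.164), with overlapping groups. The row shared by *Hoxb8* and *Hoxb7* read 4.99, 4.90 and 4.94 in wild-type and 4.92, 5.02 and 4.99 in dKO cells and did not separate the genotypes.

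In the *Hoxc* cluster *Hoxc10*, a gene of the lumbar spinal cord and hindlimb region, read 4.82, 4.86 and 4.97 in wild-type and 5.04, 5.08 and 5.07 in dKO cells. The groups did not overlap, and the log2 fold change of 0.18 (standard error 0.0521) was called (limma adjusted p = 0.0314). The call was lost on leaving out any one of 5 of the 6 arrays, all but wild-type replicate 3, and the adjusted p reached 0.109 when wild-type replicate 2 was left out. It was also lost with Student's t-test (adjusted p = 0.0932). *Hoxc10* was dim, below the array median on every array, and its wild-type mean of 4.88 was below the array first quartiles (4.97 to 5.01). Both filters on dim genes removed it. *Hoxc9* was separated by a smaller step, at 5.71, 5.72 and 5.69 in wild-type and 5.76, 5.79 and 5.76 in dKO cells, and was not called. The other 7 *Hoxc* genes overlapped between genotypes, with *Hoxc5* the lowest at -0.11 (limma adjusted p = 0.248).

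In the *Hoxd* cluster no gene was called among the 9 measured by limma or Student's t-test, and 1 had an unadjusted p under 0.05. *Hoxd11*, which patterns the forearm, read 6.23, 6.26 and 6.26 in wild-type and 6.41, 6.40 and 6.32 in dKO cells. Its arrays did not overlap, and the log2 fold change of 0.13 gave an adjusted p of 0.0824 by limma. It was called by limma when the arrays were quantile normalised again (adjusted p = 0.0456) and among the brightest 50% of genes (0.0439). That filter took the mean over both genotypes. The wild-type mean of *Hoxd11*, 6.25, fell short of 6.30, the level of the median gene in wild-type cells. Only the dKO mean of 6.38 brought *Hoxd11* into the brightest 50%, so its call there gives no support. The other *Hoxd* genes overlapped between genotypes, from -0.08 for *Hoxd13*, the digit gene at the 5' end, to 0.11 for *Hoxd8*.

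Over the 37 genes, 30 had a fold change above 0 and the median was 0.06, against 52.1% above 0 and a median of 0.01 for all genes. The cluster medians were 0.12 for *Hoxa*, 0.06 for *Hoxb*, 0.00 for *Hoxc* and 0.09 for *Hoxd*. All dKO arrays lay above all wild-type arrays in 9 *Hox* genes and below them in 1, and these separations occurred in 21.3% and 16.5% of all genes. The gap between the nearest arrays was 0.82, 0.53 and 0.58 for *Hoxa5*, *Hoxa6* and *Hoxa7* and at most 0.069 for the other 7. The 9 were *Hoxa3* to *Hoxa7*, *Hoxb6*, *Hoxc9*, *Hoxc10* and *Hoxd11*. Without *Hoxa5*, *Hoxa6* and *Hoxa7* the other 34 genes kept a median of 0.06.

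Most *Hox* genes were dim on these arrays. On every array, 29 of the 37 lay below the array median and 8 lay below the first quartile (*Hoxa10*, *Hoxa11*, *Hoxc4*, *Hoxc5*, *Hoxc6*, *Hoxd4*, *Hoxd8* and *Hoxd12*). Among all genes with a mean below the median of all genes, 3.02% were called higher. The deposited table has no detection calls, so a dim value does not separate a silent gene from a weakly expressed one. For the 33 genes not called, the 95% intervals of the log2 fold change lay within -0.24 and 0.47. These intervals cover the measured values, and for dim genes they do not bound the change in RNA.

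**Figure D3:**
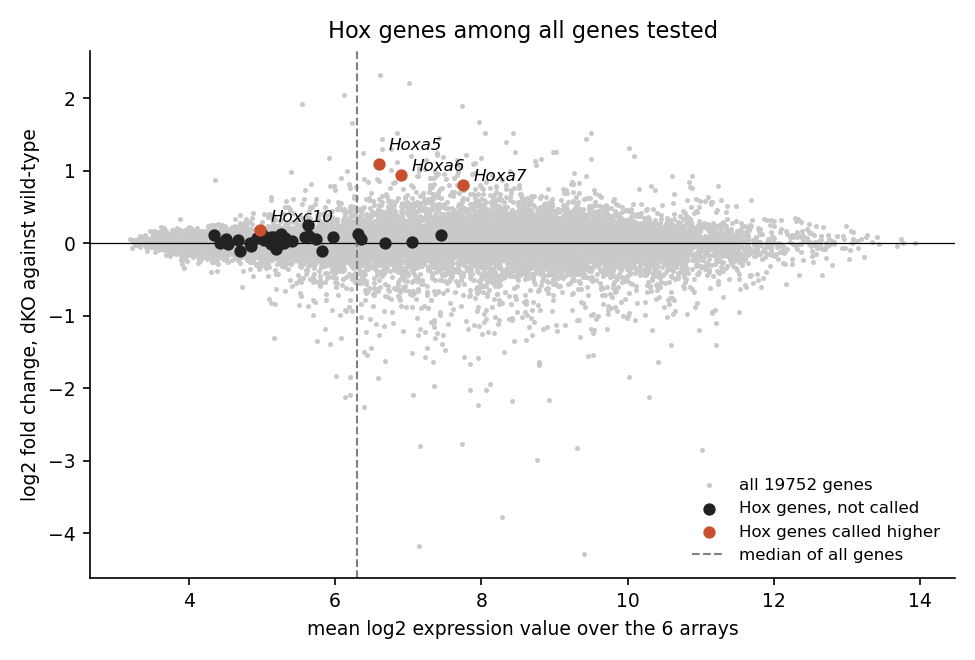
Log2 fold change, dKO against wild-type (vertical axis), against the mean log2 expression value over the 6 arrays (horizontal axis) for all 19752 genes (grey), the 33 *Hox* genes not called (black) and the 4 called higher (red, named), with the median of all genes as a dashed line. Most *Hox* genes sit left of the dashed line and close to 0, and *Hoxa5*, *Hoxa6* and *Hoxa7* sit to its right and above.

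The genes around each cluster were compared next. Directly bordering the *Hoxa* cluster, the signalling adaptor gene *Skap2* (log2 fold change 0.10, limma adjusted p = 0.227) and the homeobox gene *Evx1* (-0.06, limma adjusted p = 0.527) were not called. Further out, *Snx10*, a sorting nexin gene, was higher by 0.24 and *Jazf1*, a zinc finger gene beyond *Evx1*, by 0.61, while *Hnrnpa2b1*, an RNA-binding protein gene, was lower by 0.24 (log2 fold change -0.24). *Jazf1* read 7.05, 7.09 and 6.96 in wild-type and 7.72, 7.59 and 7.63 in dKO cells (limma adjusted p = 3.54e-05), and 3 genes that were not called stand between it and the cluster.

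Over the 40 nearest genes, 5 on each side of each cluster, 6 were higher, 7 were lower and 27 were not called, with a median of 0.01, beside 13.1% higher and 10.0% lower over all genes. With Student's t-test 2 were higher and 3 lower, and none was called against a 1.5-fold change. Of the genes bordering the other clusters, *Calcoco1*, an autophagy receptor gene next to *Hoxc13*, rose by 0.26 and *Mtx2*, a mitochondrial import gene next to *Hoxd1*, by 0.21. *Skap1*, an adaptor of T cell receptor signalling next to *Hoxb1*, fell by 0.16 on the log2 scale. *Ttll6*, *Smug1* and *Evx2* were not called, at 0.04, -0.12 and 0.15. Among genes further out, *Ube2z* (0.15) and *Nfe2l2* (0.21) were higher, and *Snf8* (-0.22), *Snx11* (-0.26), *Atf7* (-0.32), *Npff* (-0.34) and *Copz1* (-0.21) were lower. Of these 13 calls, 6 were lost without at least 1 array, those of *Snx10*, *Ube2z*, *Snf8*, *Skap1*, *Copz1* and *Nfe2l2*, which left 3 to 6 of the 40 called higher and 4 to 7 lower (the lowest counts without dKO replicate 2), with the highest adjusted p at 0.161 for *Ube2z* without dKO replicate 2.

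**Figure D4:**
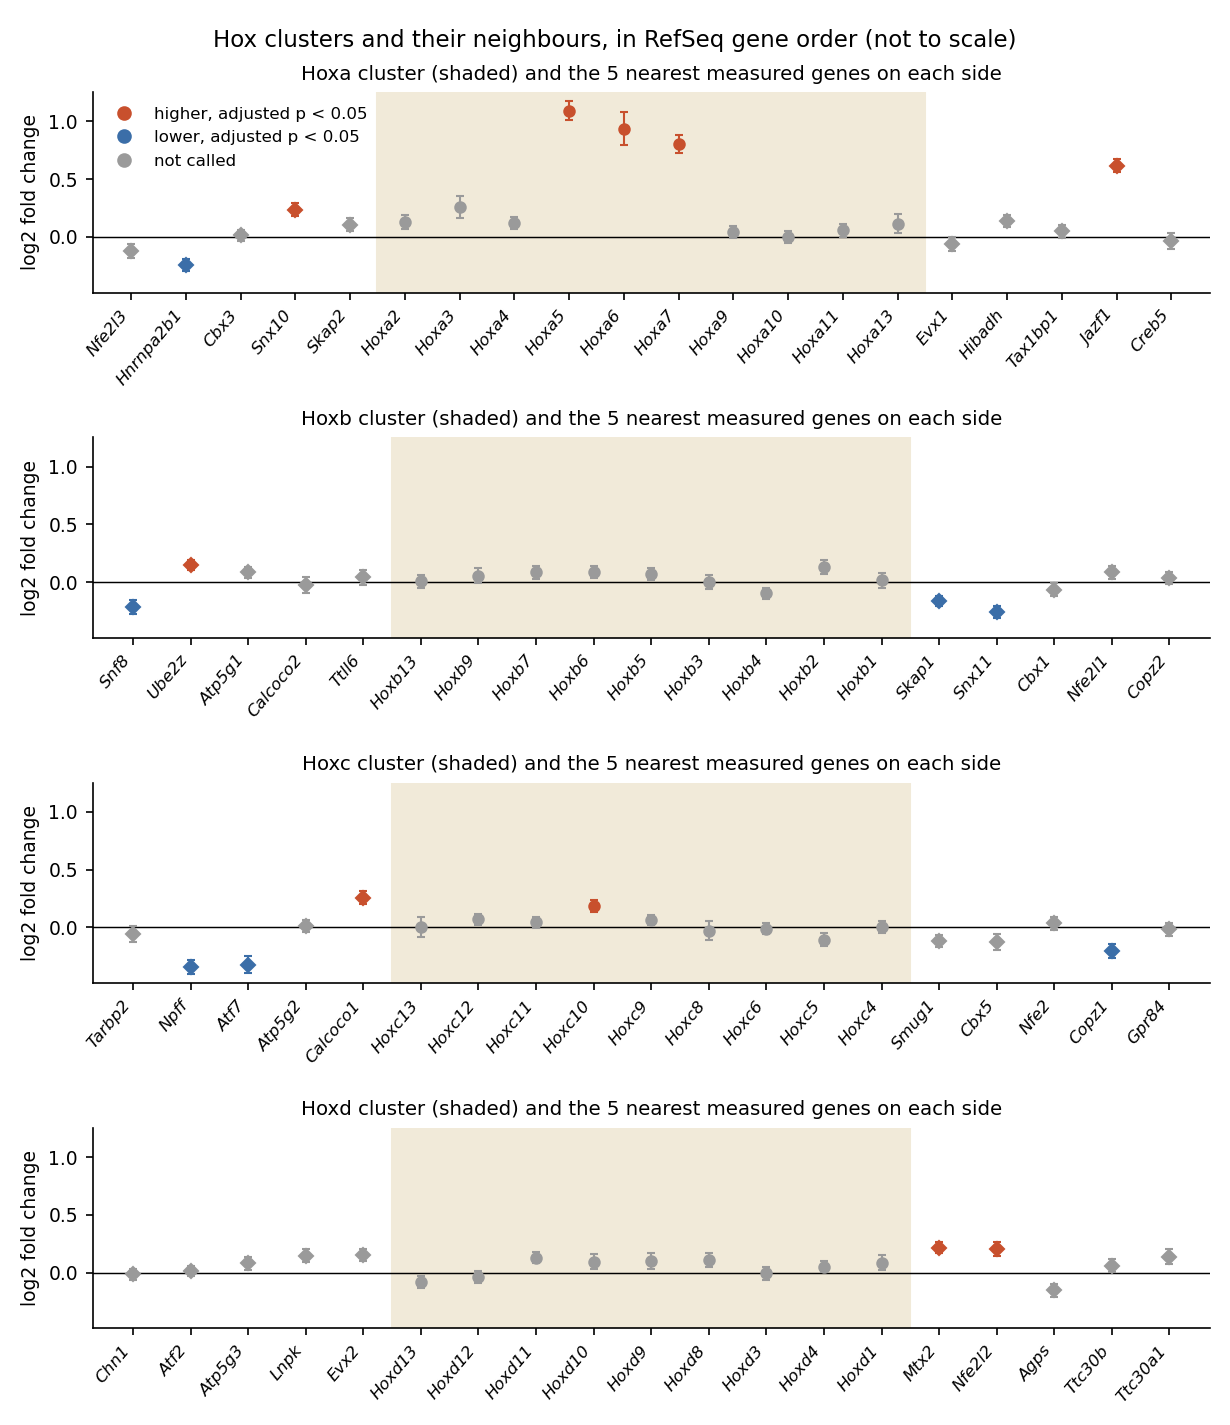
Log2 fold change, dKO against wild-type (vertical axis), of each *Hox* cluster (shaded, circles) and its 5 nearest measured genes on each side (diamonds) in RefSeq gene order, not to scale, with bars of 1 standard error and colours for genes called higher, lower or not called. Inside the shaded *Hoxa* block 3 adjacent genes are called higher, and the genes directly outside it, *Skap2* and *Evx1*, are not called.

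Noncoding genes of the clusters were measured in part, with 8 of 17 listed having a row. *Hox* cluster microRNAs are transcribed between the coding genes and repress *Hox* transcripts, among others. Those of the miR-196 family share the seed at bases 2 to 8, shown in capitals, and differ at a single base, A12C from miR-196a to miR-196b counted from the 5′ end. The miR-10 pair shares another seed and differs by U12A from miR-10a to miR-10b. The mature sequences are from RefSeq.
mmu-miR-196a-5p: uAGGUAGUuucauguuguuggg
mmu-miR-196b-5p: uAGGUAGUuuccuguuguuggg
mmu-miR-10a-5p: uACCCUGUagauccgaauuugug
mmu-miR-10b-5p: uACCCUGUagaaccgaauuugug

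*Mir196a-2*, which lies in the *Hoxc* cluster and encodes the first of these, read 4.23, 4.11 and 4.17 in wild-type and 4.43, 4.34 and 4.30 in dKO cells. The groups did not overlap, and the log2 fold change of 0.19 was called (limma adjusted p = 0.032). The call was lost without any one of 4 arrays, wild-type replicates 2 and 3 and dKO replicates 1 and 2, with a highest adjusted p of 0.13. Student's t-test did not call *Mir196a-2* either (adjusted p = 0.109). Every value of this row was dim, below the lowest first quartile of the arrays, 4.97. *Mir196a-1* in the *Hoxb* cluster, which gives the same mature sequence, differed by -0.07 and *Mir196b*, between *Hoxa9* and *Hoxa10*, by 0.03, and neither was called. *Mir10a* (0.12), *Mir10b* (0.06) and *Mir615* (-0.04) were not called either. These rows measure RNA that matches probes at the hairpin genes, and mature microRNA was not measured. The antisense gene *Hoxaas2* differed by -0.05 and *Hoxd3os1* by 0.08, and neither was called.

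Hox proteins bind DNA with cofactors of the Pbx, Meis and Pknox families. Of 9 cofactor genes 8 were measured, 1 was higher and none was lower, with a median of -0.01. *Pbx2* read 9.49, 9.51 and 9.52 in wild-type and 9.73, 9.69 and 9.70 in dKO cells, a rise of 0.20 (limma adjusted p = 0.00909). The dKO arrays lay in a narrow band above the wild-type arrays. *Meis1*, the partner of *Hoxa9* in progenitors, was not called at 0.04 (limma adjusted p = 0.794), and *Meis3* (0.11), *Pknox1* (0.07) and *Pbx3* (-0.06) were not called.

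None of the 11 ParaHox and *Hox*-linked homeobox genes was called by limma or by Student's t-test. Those with an unadjusted p under 0.05 were 2, *Evx2* (0.15, limma adjusted p = 0.0592) and *Meox1* (-0.20, limma adjusted p = 0.0703). *Evx2* was called higher among the brightest 75% and 50% of genes and without dKO replicate 3. *Meox1* was called lower on leaving out wild-type replicate 2 or dKO replicate 3 (-0.25 in both, with limma adjusted p values of 0.037 and 0.04). Of these 11 genes, 9 lay below the array median on every array. *Cdx1*, of the family of *Hox* activators whose motif was found in the *Hoxa7* window, differed by 0.09, and *Pdx1*, of the pancreas, by 0.10.

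All 18 Trithorax-side activators of *Hox* genes were measured above the array median, and 9 were called, 5 higher and 4 lower, with a median of -0.03, beside 23.1% called over all genes. Bright genes were called more often than that. When only the brightest 50% of genes were tested, 2634 were higher and 1887 lower of 9876. None of the 18 was called against a 1.5-fold change, and 3 were higher without wild-type replicate 3. Among those higher were *Ing5* (0.50) and *Dpy30* (0.42), subunits of a histone acetyltransferase complex and of the H3K4 methyltransferase complexes. *Psip1* (0.30) and *Men1* (0.18), which tether the methyltransferase Kmt2a to chromatin, and *Ash2l* (0.19), a core subunit of the methyltransferase complexes, were also higher. Among those lower were *Dot1l* (-0.48), the H3K79 methyltransferase, and *Mllt3* (-0.40), a reader that works with it. *Dot1l* read 9.80, 9.71 and 9.61 in wild-type and 9.15, 9.32 and 9.23 in dKO cells (limma adjusted p = 4.55e-04). The elongation factor gene *Aff4* and the acetyltransferase gene *Kat6a* (-0.19) were lower as well.

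*Kmt2a*, the methyltransferase that maintains *Hoxa* expression in progenitors, was at -0.18 and was not called (limma adjusted p = 0.0579). It was called without dKO replicate 3 (-0.23, adjusted p = 0.0235) and under 4 other settings, with an adjusted p of 0.0233 under cyclic loess normalisation, both by limma. The calls of *Ash2l* and *Men1* were lost without any one of 3 arrays each and that of *Kat6a* without any one of 5, where their adjusted p reached 0.0675 (wild-type replicate 2 left out), 0.0695 (wild-type replicate 3 left out) and 0.139 (dKO replicate 1 left out). *Kat6a* was also not called after repeated quantile normalisation (adjusted p = 0.0715) or with Student's t-test (0.15).

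All 17 genes listed as expressed together with *Hoxa* genes in early progenitors were measured, *Hoxa9* among them. None was called in either direction by limma, 0 had an unadjusted p under 0.05 and 0 were called by Student's t-test, and 14 lay below the array median on every array. Their log2 fold changes stayed within 0.11 of 0, with *Flt3*, a receptor of early progenitors, at 0.11 and *Bcl11a*, a progenitor and B-lineage factor, at 0.10. *Hhex* was at -0.09 and *Lyl1* at -0.06.

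**Figure D5:**
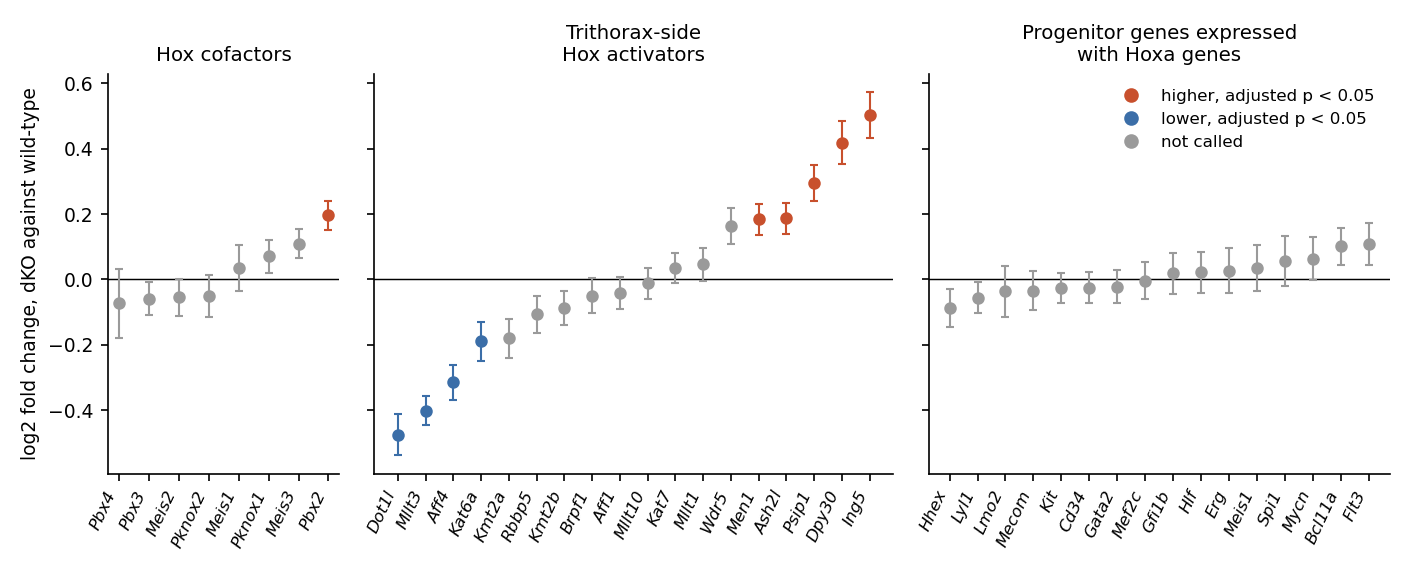
Log2 fold change, dKO against wild-type (vertical axis), of *Hox* cofactor genes, Trithorax-side *Hox* activators and progenitor genes expressed with *Hoxa* genes (*Hoxa9* left out, as it is drawn with its cluster), ordered by value, with bars of 1 standard error and colours for genes called higher, lower or not called. The activators spread from -0.48 to 0.50, and the progenitor genes stay within 0.11 of 0.

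RNA came from a sorted population, so a change in the share of cells that express a gene and a change in RNA per cell cannot be told apart. Of 14 markers of double-negative thymocytes and early progenitors, none was higher and 1 was lower, *Il2ra*, at 8.96, 8.95 and 8.96 in wild-type and 8.51, 7.89 and 7.64 in dKO cells. The summed level of the 14 on the linear scale was 1301 to 1319 in wild-type and 1013 to 1186 in dKO cells. Without *Il2ra* the sum of the other 13 was 801 to 820 in wild-type and 814 to 829 in dKO cells. *Kit*, a defining progenitor gene, read 5.29, 5.32 and 5.37 in wild-type and 5.27, 5.33 and 5.29 in dKO cells.

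Of 10 markers of double-positive thymocytes 9 were measured, 3 higher and 2 lower. *Dntt* was higher by 1.52, *Cd8b1* by 0.54 and *Cd1d1* by 0.44, and *Rag1* and *Arpp21* were lower (-0.55 and -0.25), both calls that were lost without any one of 4 arrays (limma adjusted p up to 0.15 without dKO replicate 3 and 0.0836 without wild-type replicate 2). The summed level of the list was 1902 to 2115 in wild-type and 2727 to 3021 in dKO cells. Genes of the list moved in both directions, so this sum does not measure the share of such cells. *Rag2* lay between 4.53 and 4.63 in wild-type and between 4.67 and 4.81 in dKO cells and was not called. The part of the double-positive and other marker genes in the *Hoxa* result was not tested.

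Of 9 myeloid and dendritic cell markers, *Lyz2* was higher (0.81) and *Itgam* and *Cd68* were lower (-0.78 and -0.31), and the summed level was 502 to 551 in wild-type and 476 to 658 in dKO cells. *Lyz2* read 5.35, 5.43 and 5.03 in wild-type and 6.75, 6.02 and 5.48 in dKO cells. Its call was lost without any one array other than dKO replicate 3 (limma adjusted p up to 0.126, without wild-type replicate 3). *Cd74*, an antigen presentation gene, read 6.83, 6.62 and 6.22 in wild-type and 7.73, 7.04 and 6.36 in dKO cells and was not called (0.49, limma adjusted p = 0.27). With the replicate number as a block it was called (limma adjusted p = 0.022), and so it was at 0.83 when dKO replicate 3 was left out (limma adjusted p = 0.028). Thymic stroma, B cell, innate-like and NK cell, and erythroid and megakaryocyte lists held 36 measured genes, of which *Epcam* (0.28) was higher and *Ccl25* (-0.40), *Cd79b* (-0.63) and *Itga2b* (-0.31) were lower. Their summed levels were 1174 to 1209 against 1147 to 1159 for stroma and 285 to 298 against 234 to 243 for B cells, wild-type first. For innate-like and NK cells they were 284 to 297 against 285 to 296, and for erythroid and megakaryocyte cells 246 to 263 against 237 to 245. RMA values do not reach 0, so no marker was recorded as absent.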

How the data were processed

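The authors hybridised total RNA from sorted mature CD4 SP thymocytes to Affymetrix mouse 1.0 ST arrays. The deposited table holds log2 expression values per probe set row, which the submitters' processing notes credit to RMA and Partek. No version of either is given in the sources used here, and the table has no detection calls. The study's methods and the probe annotation give the Gene array, and the design text of the deposit names the Exon array.

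Of 25254 rows, 21496 carried 1 gene symbol, 1565 several and 2193 none, and 21415 were updated through RefSeq. For each of 19752 genes the brightest row by mean over the 6 arrays was kept (each *Hox* gene had 1 row). Groups were taken from the sample labels. dKO and wild-type arrays, 3 each, were compared with lmFit and eBayes of limma 3.58.1 in R 4.3.3, without covariates. The p-values were adjusted by the Benjamini-Hochberg method across the 19752 genes, and the threshold was 0.05. The labels call the samples biological replicates but do not state the number of mice per sample or that replicates are separate mice. How far the spread behind each p-value reflects differences between mice is therefore not known, and the number of arrays limits precision. Lists were described by counts and medians. On simulated arrays of this design with 19752 genes, limma recovered 96% of 50 genes at a log2 change of 1, 96% at 0.5, 24% at 0.25 and 2% at 0.15. Only 50 genes per size were changed there, a far smaller share than the 23.1% of genes called in these data. The adjusted threshold was therefore stricter in the simulation, and these percentages are not the recovery in these data.

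Named genes were all 38 members, *Kdm6a* and *Kdm6b*, called or bordering neighbours, and from each list up to 4 members by p and the called ones where 5 or fewer. *Cd4*, *Cd74*, *Kit*, *Rag2*, *Kmt2a*, *Meis1*, *Cdx1*, *Pdx1* and *Mir615*, the called activators and the pairs of *Hox* genes compared were chosen after values were seen. Members and lists were chosen with earlier results of these data known. Alternatives were 2 further normalisations, 2 filters on dim genes, other row rules, an intensity trend, Student's t-test, a test against a 1.5-fold change, a replicate block and leaving out each array. Promoter and microRNA sequences were from RefSeq (GRCm38.p6). Figures used matplotlib 3.10.9.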

Additional observations from a re-analysis of the deposited data

How the results depend on the processing

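*Hoxa5* was called under all 16 alternatives, *Hoxa7* under 15 and *Hoxa6* under 14. *Hox* genes called higher numbered 4, against 2 with Student's t-test, 1 in the test against a 1.5-fold change and 3 to 4 without single arrays, and none was called lower under any alternative. Genes called higher over the whole table numbered 2587, 1392 with Student's t-test, 63 against a 1.5-fold change and 1901 to 2259 without single arrays. Genes called lower numbered 1976, 1173, 141 and 1496 to 1855 in the same order. The *Hoxa* median of 0.12 was 0.53 among the brightest 75% of genes (6 *Hoxa* genes left) and 0.87 among the brightest 50% (4 left), as dim genes left the list. These filters used the mean over all 6 arrays. *Hoxa5*, with a wild-type mean of 6.05 against a wild-type median of all genes of 6.30, passed the 50% filter through its dKO values. Its call under that filter and the median of 0.87 therefore give no support. Without single arrays the *Hoxa* median was 0.10 to 0.16. Without single arrays the *Hoxb* median was 0.019 to 0.085, the *Hoxc* median 0.0039 to 0.055 and the *Hoxd* median 0.029 to 0.11. Genes near 0 changed sign without single arrays, with ranges of -0.0064 to 0.067 for *Hoxa9*, -0.030 to 0.041 for *Hoxa10*, -0.018 to 0.078 for *Hoxb1*, -0.052 to 0.059 for *Hoxb3* and -0.055 to 0.046 for *Hoxb13*. The ranges were -0.023 to 0.047 for *Hoxc4*, -0.026 to 0.0039 for *Hoxc6*, -0.13 to 0.024 for *Hoxc8*, -0.11 to 0.063 for *Hoxc13*, -0.038 to 0.024 for *Hoxd3*, -0.0086 to 0.12 for *Meis1* and -0.018 to 0.10 for *Ttll6*. Under cyclic loess normalisation *Hoxb1* was -0.0042, *Hoxb3* -0.0061 and *Hoxd3* 0.0011, and under repeated quantile normalisation *Hoxd3* was 0.0041. Where no cause is named, the cause was not tested. Over the single genes and all alternatives, 1327 values kept their direction and their side of the threshold, 140 lost a call, 17 gained one and 34 changed sign, and counts of genes called in the lists moved by over 1.5 times in 67 cases and not in 381. Genes called higher made up 56.7% of calls, 47.5% under cyclic loess and 30.9% against a 1.5-fold change. Deviations of same-numbered arrays correlated at 0.0993, 0.0243 and 0.0697. Differently numbered arrays were not compared, so these values do not decide whether replicate numbers pair the arrays. With the replicate number as a block, 2574 genes were higher and 1970 lower, and the same 4 *Hox* genes were called higher. Most *Hox* genes lay near the dim end of the arrays, which limits what could be called for them.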
